A study of Mus musculus with 2 samples.

Results

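The genes of 10 transcription factors and RNA-binding proteins that hold cells in the pluripotent state were compared between a pair of mouse stem cell cultures. They were Pou5f1, Sox2, Nanog, Sall4, Lin28a, Lin28b, Utf1, Zfp281, Zscan10 and Foxd3, chosen by name for their known role, 10 of the 34650 gene names on the array. Every array probe carrying one of these names was taken, which gave 16 of the 55681 probes, each printed as 1 spot. RNA was measured on 1 one-colour array for EpiSC and 1 for ELA-EpiSC. Both cultures were grown from the mouse embryonic stem (ES) cell line E14Tg2A, of strain 129/Ola with no label of a transgene or deletion. EpiSC, epiblast stem cells, were made by placing ES cells directly in a defined medium with FGF2 at 12 ng/mL and Activin A at 20 ng/mL. ELA-EpiSC received the same growth factors but started from ELA, epiblast-like aggregates, which are clusters that ES cells form in suspension once LIF is withdrawn. Per the labels each RNA was a pool from 3 experiments and the cultures come from 1 cell line, so no difference below has a replicate check and no test was possible. In RNA from whole cultures, fewer cells of a type and less RNA per cell cannot be told apart. A source label calls the EpiSC RNA an Argonaute precipitate, and both source labels give the time point before differentiation. The titles and descriptions contradict this, and the titles were followed.

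Pou5f1 codes for Oct4, a POU-domain protein that binds DNA next to the HMG-box protein Sox2 on composite sites, and the pair activates its own genes and Nanog, a homeodomain factor. Around this trio act Sall4, a zinc finger partner of Oct4 and Nanog, and Utf1, Zfp281, Zscan10 and Foxd3, which keep developmental genes in check or adjust the activity of the network. Lin28a and Lin28b bind the precursors of the let-7 microRNAs and prevent their maturation. Naive ES cells and primed epiblast cells both use Oct4 and Sox2, whereas the level of Nanog is known to be lower in the primed state.

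Of the 16 probes, 13 hold an open reading frame, as the coding part of a messenger RNA does. An open frame of this length can also arise elsewhere, and the share over all probes of the array was not computed. The Lin28a and Utf1 probes, both with an open frame, also hold the polyadenylation signal AATAAA. An open frame was thus not taken to place a probe in coding sequence. The sequences of 4 of these 13 probes are shown, that of Pou5f1 and those with a feature marked in capitals. Capitals mark a stop codon in the Nanog probe and, in the Sall4 and Zscan10 probes, a pair of histidine codons at the spacing of a C2H2 zinc finger. The Pou5f1 probe has no capitals and is open in 2 of its 3 frames. The Pou5f1 probe lies at chr17:35647280-35647340 (plus strand), the Nanog probe at chr6:122663514-122663573 (plus), the Sall4 probe at chr2:168580437-168580496 (minus) and the Zscan10 probe at chr17:23746601-23746660 (plus), all in the mm9 assembly. The interval of the Pou5f1 probe spans 61 bases for a probe of 60. The sequences are given from 5′ to 3′ as the array lists them.
Pou5f1 A_51_P202340: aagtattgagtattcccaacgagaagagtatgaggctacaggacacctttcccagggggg
Nanog A_55_P2007703: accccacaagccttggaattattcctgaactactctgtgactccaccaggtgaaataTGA
Sall4 A_55_P2173546: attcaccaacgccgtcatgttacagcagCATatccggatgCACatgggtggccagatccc
Zscan10 A_55_P1970279: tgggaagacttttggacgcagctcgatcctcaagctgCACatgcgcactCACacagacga

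The composite Oct4-Sox2 site was searched for in promoter windows of RefSeq genes (assembly GRCm38.p6), which run from 250 bases before each transcription start to 50 bases after it. Nanog was the member with a match to it, and the stretch at chr6:122707384-122707457 (plus strand) is shown with the site in capitals.
Nanog promoter: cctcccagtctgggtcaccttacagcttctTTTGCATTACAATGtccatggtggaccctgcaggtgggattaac
The site searched was CATTGT, any 1 base, then ATGCAAA, on both strands, and in Nanog it lay on the minus strand, 75 to 62 bases before one annotated start and 151 to 138 bases before the other. These Nanog windows overlap and hold the same site, and they were the only 2 of 32851 windows (0.00609%) in the table with a match. The SOX core CATTGT by itself, which the composite site contains, was found in 12.6% of all windows. Of the 11 windows of the members, 4 (36.4%) held it, and 2 of these are the overlapping Nanog windows. They belong to 3 of the 9 members that matched the table, namely Nanog, Lin28a and Pou5f1. The octamer ATGCAAAT was found in 1.74% of all windows and in 0 of the 11 windows of the members.

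All 16 probes were well above background on both arrays, beside 65.9% of all array probes in EpiSC and 65.0% in ELA-EpiSC. None of the 16 was marked as an outlier spot, a mark carried by 158 non-control spots in EpiSC and 117 in ELA-EpiSC. Mean spot signals stood between 4.56 and 1612 times the local background. Levels below are log2 of the background-corrected, quantile-normalized intensity of a probe, and differences are log2 ELA-EpiSC minus EpiSC. Each gene takes the value of its brightest probe, and for the 10 factors the other probes are given beside it. Levels of different probes were not read as relative amounts of RNA, because probes differ in how strongly they bind. The mean levels and summed signals of the marker lists combine such probes, and the brightest probes weigh most in the sums. The only errors available were those of the spot. Over 399 probes with 10 usable spots each, the log2 difference varied from spot to spot with an SD of 0.10 (root mean square over probes), and this spot SD is the yardstick used below. It covers neither labelling nor culture. Spike-in RNA gave a separate view of scale: all 8 of its detected probes read lower in ELA-EpiSC, with a mean difference of -0.54 (range -0.86 to -0.26), so that setting them equal adds 0.54 to every difference.

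**Figure D1:**
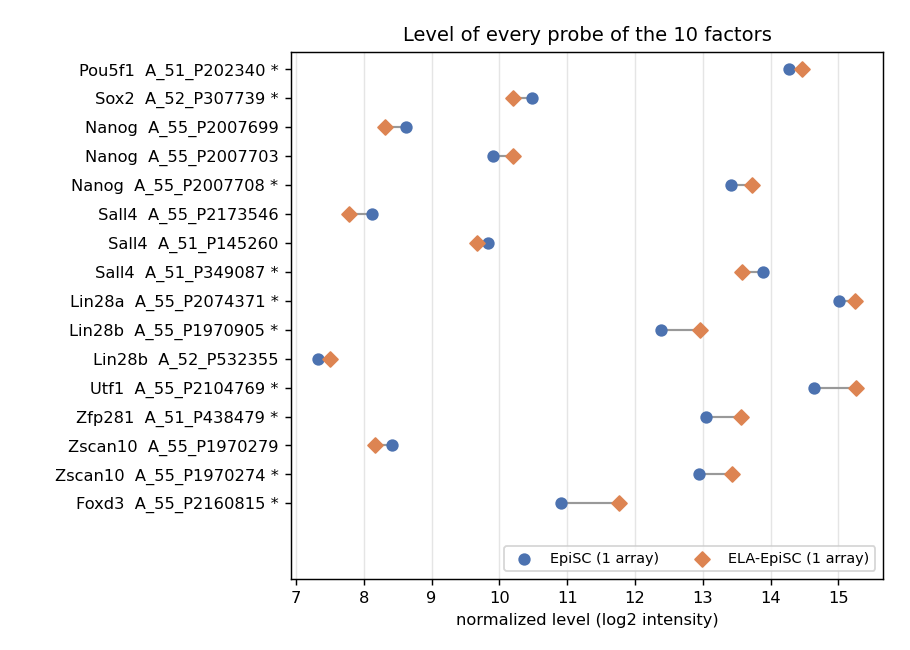
Normalized level (log2 intensity) of each of the 16 probes of the 10 factors on the EpiSC array (circles) and the ELA-EpiSC array (diamonds), with an asterisk for the brightest probe of a gene. The pair of symbols lies close together for every probe, and the widest gap is that of Foxd3, at 10.92 and 11.77.

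The factors were all detected on both arrays. Of the 10 genes, 8 were higher in ELA-EpiSC and 2, Sox2 and Sall4, were lower, with a median difference of 0.40 and a range from -0.31 to 0.85. For comparison, 50.2% of the 16649 genes whose mean log2 level reached 7.5 were higher in ELA-EpiSC, and their median difference was 0.00. The median absolute difference was 0.40 for the factors and 0.28 for these genes. No factor passed an absolute difference of 1, which 9% of all these genes passed. None differed by less than the spot SD, beside 19.6% of all genes. At an absolute difference of 0.5 the count was 4 of 10 (Foxd3, Utf1, Lin28b and Zfp281), beside 27.3% of all genes. This count was 1 or 2 when the arrays were scaled to the 75th percentile, from the processed signal or after normexp. The share of all genes past 0.5 was not computed under these scalings. These counts and shares are a description of 2 arrays. Under spike-in scaling all 10 factors were higher in ELA-EpiSC and 5 passed 1, beside 87.7% of all genes higher and 16.7% past 1 on that scale. The median of the factors then stood at 0.94 and that of all genes at 0.54, so that the factors lay 0.40 above the bulk of the genes on either scale, as a common shift must leave it. With the mean or the median over the detected probes of a gene in place of the brightest probe, this excess was 0.21 or 0.27.

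**Figure D2:**
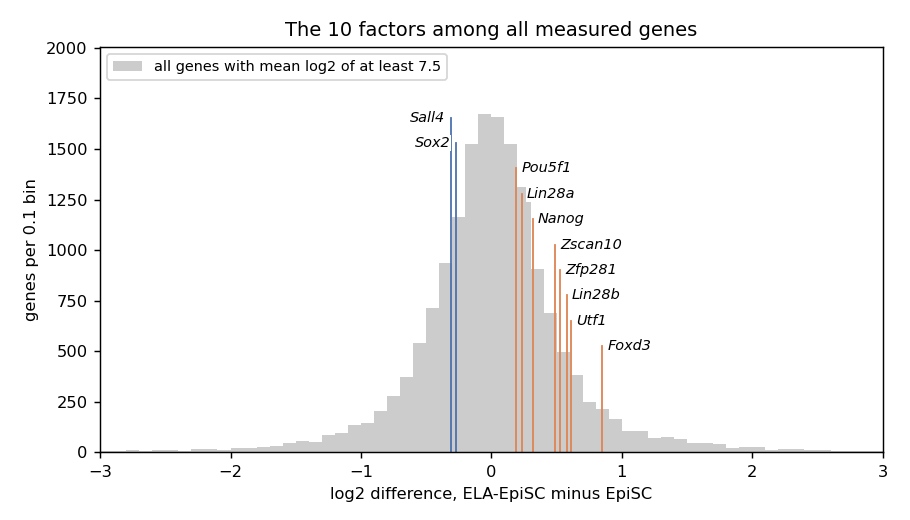
Number of genes per bin of 0.1 in log2 difference (ELA-EpiSC minus EpiSC) for the 16649 genes whose mean log2 level reached 7.5 (grey bars), with each factor marked at its difference by a line whose height has no meaning. Blue lines mark Sall4 and Sox2 below 0 and orange lines the other 8 factors above 0, and 89 genes lie outside the plotted range of 3 on either side.

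Pou5f1, Sox2 and Nanog form the centre of the network. Pou5f1 read 18697 intensity units in EpiSC and 23661 in ELA-EpiSC, which after normalization gave levels of 14.27 and 14.46. Its difference of 0.19 (1.14-fold) was 1.96 times the spot SD and 63.2% of all genes had a larger one. It was the smallest in size among the 10 factors and lay above 0 under all 13 alternatives run, at 0.05 to 0.73. The Pou5f1 probe shared a run of at least 18 bases with a probe named Gm5712. At the best shift without gaps 63.3% of its bases matched, with bases beyond the overlap counted as unmatched. The Gm5712 probe, picked out after its values were seen, read 13.38 and 13.66. Signal from a transcript that both probes would bind cannot be told apart.

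Sox2, measured by 1 probe at chr3:34550773-34550832 (plus strand, mm9), read 1253 and 1287 units. Before normalization the ELA-EpiSC spot was thus slightly the brighter, whereas the normalized levels were 10.48 in EpiSC and 10.21 in ELA-EpiSC. The difference of -0.27 (1.21-fold lower in ELA-EpiSC) was 2.79 times the spot SD. Scaling to the array median brought it to -0.02, and spike-in scaling turned it to 0.26.

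Nanog had 3 probes, and they did not give 1 direction. The brightest, at chr6:122664590-122664649, read 13.41 and 13.73, higher in ELA-EpiSC by 0.32 (1.25-fold). The probe that ends at the stop codon read 9.90 and 10.20, a difference of 0.30. Between these lies the third, at chr6:122663676-122663735, which starts 102 bases beyond the stop codon probe and read 8.63 and 8.32, a difference of -0.31. The outer 2 probes differed from each other by 0.01, whereas the middle one lay 0.61 and 0.63 below them, over 6 times the spot SD. Spike-in scaling turned the middle probe to 0.23. Of the 3, the middle probe was also the one whose bases recur on the array. It shared a run of at least 18 bases with 14 probes of other gene names, 13 of them on the opposite strand. At most 76.7% of its bases matched, with bases beyond the overlap counted as unmatched. Neither of the other Nanog probes shared such a run with any probe. The brightest probe, 1016 bases beyond the stop codon probe, holds the polyadenylation signal AATAAA and has no open frame. Whether the recurring bases bear on the reading of the middle probe was not tested.

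**Figure D3:**
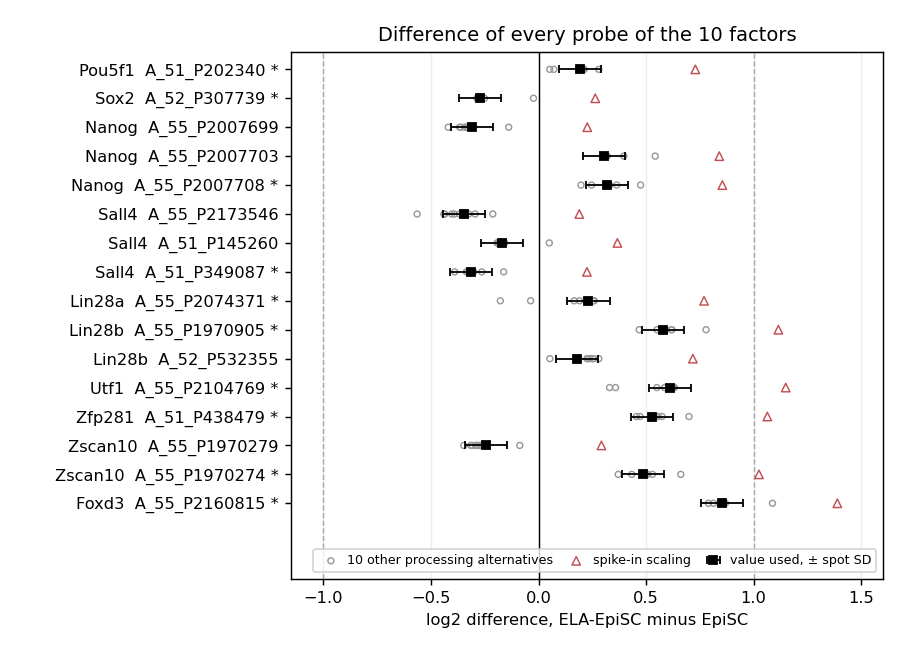
Log2 difference (ELA-EpiSC minus EpiSC) of each of the 16 probes (black squares, bars of 1 spot SD to each side), with the same value under spike-in scaling (triangles) and 10 other ways of processing (open circles), and dashed lines at -1 and 1. The squares run from -0.35 for a Sall4 probe to 0.85 for Foxd3, and the triangles of all 16 probes lie above 0.

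Sall4 was the factor with several probes of which all were lower in ELA-EpiSC. It codes for a zinc finger protein that joins Oct4 and Nanog on chromatin. Its brightest probe, at chr2:168574333-168574392 (minus strand), read 13.89 in EpiSC and 13.57 in ELA-EpiSC (-0.31). The zinc finger probe shown above, a dim one, read 8.13 and 7.78, a difference of -0.35. The third, between them on the chromosome, read 9.84 and 9.67, a difference of -0.17. The outer probes lie 6044 bases apart, and the 3 differed from each other by 0.18 at most, 1.81 times the spot SD. Spike-in scaling turned all 3 to positive values, 0.19 to 0.37, and scaling to the array median turned the third probe to 0.05.

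Lin28a and Lin28b were both higher in ELA-EpiSC on the scale used, and only Lin28a turned with the scaling. Lin28a, at chr4:133559245-133559304 (minus strand), read 15.01 in EpiSC and 15.25 in ELA-EpiSC, which is 0.23 higher (1.17-fold). Scaling to the 75th percentile turned it to -0.18 with the processed signal and to -0.04 after normexp, so its direction depended on the scaling. Lin28b read 12.39 and 12.96 on its bright probe at chr10:45096468-45096527 (minus strand), a difference of 0.58 (1.49-fold), 5.90 times the spot SD. A second Lin28b probe, 43884 bases upstream, was the dimmest of the 16, at 118 and 164 intensity units, 4.56 and 6.07 times the background. It read 7.33 and 7.51, a difference of 0.18 that ran from 0.05, with normexp and the 75th percentile, to 0.72 with spike-in scaling. Without the offset of 50 added in background correction, which compresses differences of dim probes, it was 0.25.

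The remaining 4 factors were all higher in ELA-EpiSC on their brightest probes. Foxd3, a forkhead factor needed to maintain the epiblast and later the neural crest, read 1714 and 3842 units, or 10.92 and 11.77 after normalization, at chr4:99325170-99325229 (plus strand). Its difference of 0.85 (1.80-fold) was 8.69 times the spot SD and larger in size than that of 88.1% of the genes. It remained under 1 except after scaling to the array median, at 1.09, and to the spike-in probes, at 1.39.

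Utf1, a chromatin-bound factor that is lost early in differentiation, read 14.65 in EpiSC and 15.26 in ELA-EpiSC at chr7:147130950-147131009 (plus strand), a difference of 0.61 (1.53-fold). Scaling to the 75th percentile brought it to 0.33 with the processed signal and 0.36 after normexp. Zfp281, a zinc finger factor with a part in the passage from the naive to the primed state, read 13.04 and 13.57 at chr1:138524591-138524650 (plus strand), a difference of 0.53 (1.44-fold).

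Zscan10, a SCAN-domain zinc finger protein of pluripotent cells, had 2 probes of opposite sign. The bright one, at chr17:23747920-23747979 (plus strand), read 12.95 and 13.44, higher in ELA-EpiSC by 0.49 (1.40-fold). The zinc finger probe shown above, 1259 bases upstream, read 285 and 279 units, or 8.42 and 8.17 after normalization, a difference of -0.24. The gap of 0.73 between the probes was 7.48 times the spot SD, the widest among the probes of any factor. Without the offset the dim probe stood at -0.29 and the bright one at 0.49. Spike-in scaling turned the dim probe to 0.29. Of the 4 factors with several probes, Nanog and Zscan10 had probes of both signs, and Sall4 and Lin28b did not. Counted by probe, 10 of the 16 were higher in ELA-EpiSC and 6 lower, beside 50.2% of all genes higher.

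The partners of the factors were read from lists, and the counts are set beside the 9% of genes past 1 given above. That share covers genes whose mean log2 level reached 7.5, and the list counts cover every detected gene. With the same minimum, the counts past 1 become 3 of 6 rather than 4 for endoderm and 2 of 4 rather than 3 for fibroblast markers, and those of the other lists do not change. Over the alternatives the medians of the lists ran from 0.17 to 0.88 for the network genes, 0.12 to 0.83 for the let-7 axis, 0.18 to 1.03 for the Oct4-Sox2 targets and 0.05 to 0.78 for the primed markers. The medians of the ground-state list (-0.75 to 0.26) and the neural list (-0.04 to 0.85) took both signs. The upper end of each of these ranges was the value under spike-in scaling, where the median of all genes was 0.54. Of 22 other genes of the pluripotency network, 21 were detected, with a median difference of 0.34. In this list 3 were higher in ELA-EpiSC past 1 and 1 lower. Zic2, a zinc finger factor of primed cells, read 9.18 and 10.85 (3.20-fold higher in ELA-EpiSC), Myc 11.07 and 12.54 (2.77-fold), and Tdgf1, the Nodal co-receptor Cripto, 11.48 and 12.67 (2.29-fold). Of the 3 Tdgf1 probes the lowest stood at 0.45. Gdf3, a TGF-beta family ligand, read 11.15 and 9.53, 3.08-fold higher in EpiSC, while its other probe stood at -0.68. Prdm14 was the member not detected on either array.

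In the pathway of Lin28a and Lin28b, all 15 genes listed for the let-7 axis were detected, with a median of 0.29 and a range from -0.56 to 1.05. One passed 1, Zcchc11, the uridylyltransferase that LIN28 recruits to let-7 precursors, at 10.73 and 11.78, while its other probe stood at 0.60. Among 17 relatives of the factors by gene family, 13 were detected and their median was 0.04, which ran from -0.15 to 0.58 under the alternatives and so has no settled sign. Pou3f1, a POU factor of the primed epiblast, was the relative past 1, at 12.56 and 14.02, whereas Pou3f2, Pou3f3, Pou3f4 and Foxd1 were not detected on either array.

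All 5 genes listed as classical targets of the Oct4-Sox2 site were detected, with a median of 0.49. They spread more widely than the factors. Spp1, which codes for osteopontin, read 9.09 in EpiSC and 10.87 in ELA-EpiSC (3.42-fold higher), whereas Fgf4 read 11.04 and 9.62 (2.66-fold higher in EpiSC). The other 3 lay between -0.22 and 0.52.

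**Figure D4:**
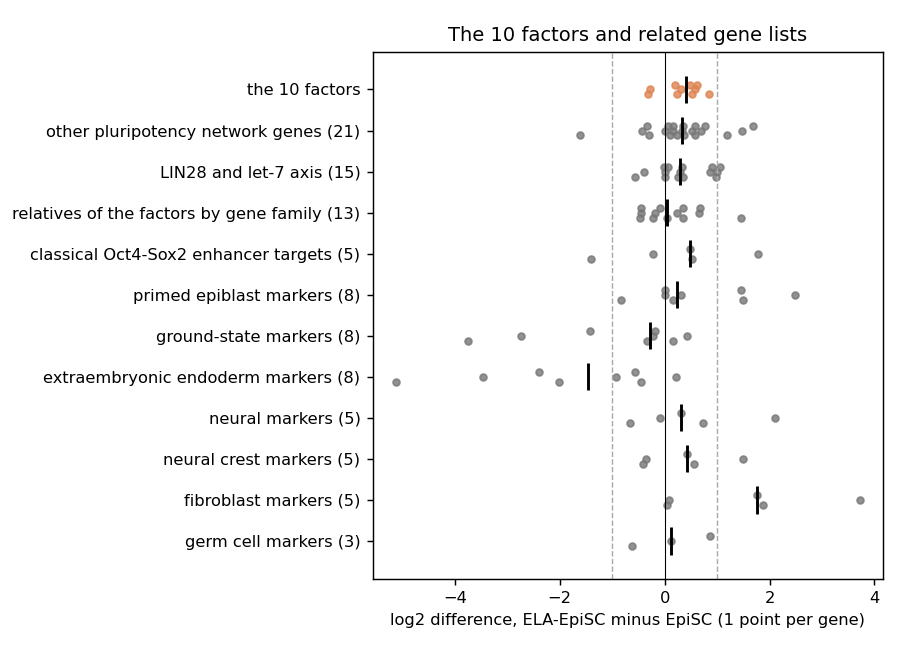
Log2 difference (ELA-EpiSC minus EpiSC) of each detected gene (points, brightest probe) for the 10 factors (orange) and 11 lists of related genes and cell type markers (grey), with the number detected in brackets, a black line at each median, and dashed lines at -1 and 1. The factors lie between -0.31 and 0.85, and single markers of endoderm, ground state and fibroblasts lie far outside this range. Of the points shown, Ttr and Apoa1 (endoderm) and Dppa3 (ground state) were not well above background in ELA-EpiSC, nor was Neurog2 (neural) in EpiSC.

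Markers of cell state were checked beside the factors. All 8 primed epiblast markers were detected on both arrays, with mean levels of 14.16 in EpiSC and 14.79 in ELA-EpiSC over the list and a median difference of 0.24. Past 1 were T, the primitive streak factor Brachyury (11.18 and 13.66), Nodal (12.93 and 14.42) and Pou3f1, all higher in ELA-EpiSC. Dnmt3b, a DNA methyltransferase, went the other way, at 17.07 and 16.24 (-0.84, and -1.11 on its lowest probe), and the other 4 lay between 0.00 and 0.32. The summed signal of the list was 306385 in EpiSC and 287928 in ELA-EpiSC, the opposite order to the mean of its log2 levels. Of the 8 ground-state markers, 8 were detected in EpiSC and 7 in ELA-EpiSC, with mean levels of 9.45 and 8.45, summed signals of 7641 and 3782 and a median difference of -0.27. Tbx3 (11.37 and 7.62), Nr0b1 (9.68 and 6.94) and Tfcp2l1 (10.37 and 8.95), transcription factors of the naive state, were higher in EpiSC past 1. The other 5 lay between -0.33 (Klf2) and 0.43 (Esrrb), and Klf4 stood at 0.16. A second Tfcp2l1 probe stood at -0.70, short of 1 in size.

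Markers of other cell types also differed between the arrays. Of 8 extraembryonic endoderm markers, 8 were detected in EpiSC and 6 in ELA-EpiSC, and the summed normalized signal of the list was 58555 and 32082. Hnf4a, a nuclear receptor of visceral endoderm, read 12.79 in EpiSC and 7.67 in ELA-EpiSC (34.7-fold higher in EpiSC), and Gata4 12.11 and 9.72 (5.24-fold). Ttr and Apoa1, which code for secreted carrier proteins, were not well above background in ELA-EpiSC and were at least 10.7-fold and 4.02-fold higher in EpiSC. Foxa2, Gata6, Sox17 and Afp lay between -0.93 and 0.21. All 5 fibroblast markers were detected on both arrays, with summed signals of 3487 and 6118, and Col1a1 (7.07 and 10.79), Col3a1 (6.52 and 8.39) and Pdgfra (7.98 and 9.75) were higher in ELA-EpiSC past 1. The other 2, Col1a2 (10.89 and 10.97) and Thy1 (10.12 and 10.17), differed by less than the spot SD.

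Of 6 neural markers, 4 were detected in EpiSC and 5 in ELA-EpiSC, with summed signals of 6588 and 23213. Nes, the intermediate filament nestin, was the one past 1, at 12.26 and 14.37. It had the highest level of the list on both arrays and so weighed most in the sums. The other 4 detected genes lay between -0.67 (Zfp521) and 0.72 (Tubb3), the median of the list was 0.31, and Pax6 was not detected on either array. All 5 neural crest markers were detected, with summed signals of 1159 and 1638. Snai2 was past 1, at 7.19 and 8.68, while Sox10, the crest marker with which Foxd3 is often read, stood at 7.29 and 7.85. Pax3 (-0.41) and Tfap2a (-0.36) were lower in ELA-EpiSC. Of 4 germ cell markers, 3 were detected on both arrays, with summed signals of 2423 and 3060, none passed 1, and Dazl was not detected. The part of these cell types in the differences of the factors was not tested.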

How the data were processed

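RNA of EpiSC and ELA-EpiSC was hybridized to 1 Agilent one-colour array each, on 1 slide in 1 scan. The deposited scanner output gives the linear intensity of each spot, not normalized, made per the file headers with Feature Extraction 10.7.3.1 (9.1 in the submitters' notes). The labels give 50 ng of RNA labelled with Cy3, and probe coordinates are mm9. A log2 table by the authors, background-corrected and quantile normalized with limma, served as an alternative. Here normexp with an offset of 50 was applied to the mean spot signal (limma 3.58.1, R 4.3.3). Control and outlier spots were left out, and the arrays were quantile normalized, which removes any shift common to the genes. A probe counted as detected if 0.5 or more of its spots passed the well-above-background flag, and a gene took its brightest probe detected on at least 1 array. A probe detected on 1 array only was set against the lowest detected signal of the other array, or its own signal there if higher, as a bound. The procedure was tested on simulated data. From each list, up to 4 genes with the largest difference past 1 were named. Protein sequences were not used here, so coding position was not determined and only open frames within the probes were read. The members, lists and thresholds were chosen with earlier results of these data known.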

Additional observations from a re-analysis of the deposited data

How the results depend on the processing

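The values of the 10 factors, their median and their counts were recomputed under 13 alternatives, single probes under 11, and the counts of all genes past each threshold under 4. The ranks and promoter matches were not recomputed. The median difference of the 10 factors was above 0 in all of them. It moved from 0.40 to 0.26 with the processed signal scaled to the 75th percentile, 0.30 with normexp and the 75th percentile, 0.53 with the array median and 0.94 with spike-in scaling, and to 0.21 and 0.27 with the mean and the median over the detected probes of a gene. The count past 1 went from 0 to 1 with the array median and to 5 with spike-in scaling. The count past 0.5 went from 4 to 1 and 2 under the 75th percentile scalings, in that order, and to 8 with spike-in scaling. On the spike-in scale 58.2% of all genes passed 0.5 and 16.7% passed 1. Shares of all genes were not computed under the 75th percentile and array median scalings. The count of factors higher in ELA-EpiSC stayed between 7 and 10. Of 130 values of single factors, 99 stayed within 1 spot SD of the value used and 4 took the other sign (Sox2, Sall4 and Lin28a, named with their values above). For the 6 factors with 1 probe, the mean and the median over probes repeat the value used by construction. Without the minimum level 6.73% of all genes passed 1, with a minimum of 9 the share was 7.96%, and with genes detected on both arrays only it was 8.96%. The number of arrays limits the precision, and 6 factors rest on 1 probe printed once. No paired analysis was possible because there was 1 array per culture, and no replicate could be left out.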
